A study of Mus musculus with 8 samples.

Results

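Wdr60, Esyt2, Ncapg2 and Ptprn2 lie next to each other on mouse chromosome 12, and the level of each was lower on average in the cortex of bigenic mice expressing ΔNLS-hTDP-43 than in nontransgenic mice. They were examined with Rapgef5, the next gene measured on their distal side, whose level was higher on average in bigenic mice. The 5 genes were taken by symbol from the transcripts that the authors named, and each has 1 row in the deposited table. They make up 5 of the 10588 genes tested, out of 28662 transcripts in that table. The genes were picked because of their difference between bigenic and nontransgenic mice, so that difference is described for them here and was not tested again. The question put to them is whether they follow the number of gene copies at a place where a transgene inserted or respond to TDP-43.

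ΔNLS-hTDP-43 is human TDP-43, an RNA-binding protein of the nucleus, with a mutated nuclear localization signal that keeps it mainly in the cytoplasm. The 4 bigenic mice carried both Camk2a-tTa and the deltaNLS-hTDP-43 transgene, whose tetracycline-responsive promoter is switched on by tTa when doxycycline is absent. The Camk2a promoter acts mainly in excitatory neurons of the forebrain, so only part of the cells in the tissue express the transgene. The 4 nontransgenic mice carried neither transgene and were offspring of parents heterozygous for each. All 8 mice were given as C57BL/6, ate doxycycline until 28 days of age, and were sampled 10 days after it was withdrawn. Poly(A)+ RNA of the right cortex was sequenced. No mice with only Camk2a-tTa or only the other transgene were among the samples, so an effect of either insertion site and an effect of TDP-43 cannot be told apart by comparing these groups.

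A transgene enters a chromosome at 1 place, where it can delete or interrupt genes, and a mouse that has lost a gene on a single chromosome copy keeps the other. The transcript of such a gene then often stands near a ratio of 0.5. TDP-43 itself binds RNA rich in UG repeats, mostly within introns, and long genes of neurons are known to depend on it. The 5 genes have unrelated roles. Wdr60 is an intermediate chain of dynein-2, the motor that carries cargo back along the cilium. Esyt2 is an extended synaptotagmin that tethers the endoplasmic reticulum to the plasma membrane. Ncapg2 is a subunit of condensin II, which shapes chromosomes in division. Ptprn2, also called phogrin, is a transmembrane protein of dense-core vesicles in neurons and endocrine cells. Rapgef5 is an exchange factor that activates Rap GTPases.

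The mice are named by their column names, with bg for bigenic and nt for nontransgenic. The transgene transcript separated the groups, at 29375 or more normalized counts in each bigenic mouse and 80 or fewer in each nontransgenic mouse. Endogenous Tardbp was lower in bigenic mice (log2(fold change) -0.33, limma adjusted p = 0.00645). Depth differed more than the totals of 20125748 to 21980950 normalized counts show, because an estimated 10.6 M reads in bg277 and 31.9 M reads in bg286 lie behind them, with the other mice in between. Xist, which is transcribed from the inactive X chromosome of females, was between 24132 and 26813 in bg254, nt242 and nt250 and between 19 and 341 in the other 5 mice. Ddx3y, on the Y chromosome, was at most 24 in those 3 mice and at least 2545 in the others. The methods give 3 males in each group, and the RNA of the nontransgenic group held 2 mice with the male pattern. Values are therefore also given with a sex term in the fit. Cell type markers moved with the groups as well. The choroid plexus markers that passed the filter, 4 of 8, were all called higher. Their summed level was 8381 to 19521 in bigenic and 383 to 1246 in nontransgenic mice. Kl, Clic6 and Prlr passed the filter, 10 CPM in at least 1 mouse, only through bigenic mice, so the filter favoured their direction. Ttr, which passed it in both groups, was at 7741 to 18520 in bigenic and 236 to 1023 in nontransgenic mice. Astrocyte markers summed to 123563 to 147552 in bigenic and 156061 to 170881 in nontransgenic mice, with 5 of 8 called lower. Microglial markers summed to 3833 to 4757 against 5051 to 5902, with 5 of the 7 tested called lower. Over all genes tested, 15.4% were called lower and 20.5% higher. Markers of cortical excitatory neurons, present in every mouse, summed to 44307 to 63673 against 73161 to 80608, with Camk2a and Nrgn called lower. The part of these shifts in the values of the chromosome 12 genes was not tested. In bulk tissue, fewer cells of a type and less RNA per cell cannot be told apart.

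On mm9, Wdr60 occupies chr12:117445523-117501498 on the minus strand. The other 4 genes lie distal to it on the plus strand. They are Esyt2 at chr12:117519695-117611569, Ncapg2 at chr12:117643875-117702004, Ptprn2 at chr12:117724193-118516640 and Rapgef5 at chr12:118754952-118995451. Gaps of 18.2 kb, 32.3 kb and 22.2 kb separate the first 4 genes, which together span 1.07 Mb, and 238 kb lie between Ptprn2 and Rapgef5. Ptprn2 alone is 792 kb long. On the proximal side the nearest gene tested, Zfp386, ends 146 kb before Wdr60. The annotation has 9 protein-coding genes from Zfp386 to Rapgef5, and 6 of them were tested. Vipr2, between Zfp386 and Wdr60, was not analysed here.

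The promoters of Wdr60, Esyt2, Ncapg2 and Ptprn2 are shown so that the control sequence of these neighbours can be compared. Each is the RefSeq promoter (GRCm38.p6 table) from 250 bases before to 50 bases after the start, read on the strand of its gene, and each matched mm9 exactly once. The matches are chr12:117501449-117501748 on the minus strand for Wdr60, and chr12:117519445-117519744, chr12:117643659-117643958 and chr12:117723943-117724242 on the plus strand for Esyt2, Ncapg2 and Ptprn2. Capitals mark matches to the letters of a GC box (GGGCGG, on either strand, so also as CCGCCC) and, in Wdr60 alone, of a TATA box (TATAAA). Matches were taken anywhere in the window, and the TATAAA of Wdr60 lies far upstream of the start.
Wdr60: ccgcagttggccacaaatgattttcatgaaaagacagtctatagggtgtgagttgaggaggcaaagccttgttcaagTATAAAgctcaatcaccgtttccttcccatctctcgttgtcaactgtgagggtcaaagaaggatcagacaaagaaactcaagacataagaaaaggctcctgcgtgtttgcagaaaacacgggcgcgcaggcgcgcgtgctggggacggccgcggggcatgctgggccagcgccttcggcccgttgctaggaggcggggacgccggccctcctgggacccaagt
Esyt2: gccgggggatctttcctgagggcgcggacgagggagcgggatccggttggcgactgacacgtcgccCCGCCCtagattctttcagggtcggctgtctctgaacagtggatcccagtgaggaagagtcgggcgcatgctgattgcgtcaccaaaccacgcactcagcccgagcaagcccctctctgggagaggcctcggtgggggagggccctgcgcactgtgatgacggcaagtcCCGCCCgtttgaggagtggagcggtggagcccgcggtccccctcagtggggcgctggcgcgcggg
Ncapg2: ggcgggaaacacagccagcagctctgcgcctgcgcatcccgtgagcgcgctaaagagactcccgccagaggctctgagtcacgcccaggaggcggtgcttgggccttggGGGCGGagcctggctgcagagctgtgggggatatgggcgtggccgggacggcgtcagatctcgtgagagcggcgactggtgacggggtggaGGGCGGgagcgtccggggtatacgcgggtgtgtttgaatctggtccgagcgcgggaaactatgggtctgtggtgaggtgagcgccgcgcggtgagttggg
Ptprn2: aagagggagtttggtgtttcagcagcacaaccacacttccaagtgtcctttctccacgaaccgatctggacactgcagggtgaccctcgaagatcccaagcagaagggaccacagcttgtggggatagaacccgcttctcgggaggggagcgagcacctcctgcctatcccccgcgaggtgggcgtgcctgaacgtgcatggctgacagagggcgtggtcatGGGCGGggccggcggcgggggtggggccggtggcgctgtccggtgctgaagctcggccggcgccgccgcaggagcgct

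All 4 promoters are rich in CpG, with 19 in Wdr60, 28 in Esyt2, 30 in Ncapg2 and 24 in Ptprn2. At least 73.5% of all 32851 promoters hold as few or fewer CpG than each of them. The GC box occurs 2 times in Esyt2, 2 times in Ncapg2, 1 time in Ptprn2 and not in Wdr60, and 35.7% of all promoters hold it. The TATAAA of Wdr60 is found in 13.6% of promoters. None of the 4 windows holds a CCAAT box (CCAAT), a cAMP response element (TGACGTCA), an ETS motif (CCGGAAG) or an E-box (CACGTG) on either strand. No motif of those searched was thus shared by all 4 windows.

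Esyt2 had the lowest ratio of the 5 genes. Its normalized counts, which are reads divided by a factor per mouse, were 769, 724, 779 and 806 in bigenic mice bg254, bg277, bg283 and bg286. They were 1570, 1499, 1408 and 1644 in nontransgenic mice nt242, nt250, nt255 and nt278. The groups did not overlap, and the highest bigenic mouse was far under the lowest nontransgenic mouse. The means were 769.5 ± 34.1 (SD, n = 4) and 1530 ± 101 (SD, n = 4), and the log2(fold change) was -0.99 with an SE of 0.08. Converted to a ratio, the level in bigenic mice was 0.504 of that in nontransgenic mice, with a 95% interval of the fit from 0.447 to 0.567. Each bigenic mouse stood between 0.473 and 0.527 of the nontransgenic mean, a narrow range around 0.5.

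Wdr60, the neighbour transcribed away from Esyt2, varied more between mice. It measured 365, 521, 362 and 342 normalized counts in bg254, bg277, bg283 and bg286. In nt242, nt250, nt255 and nt278 it measured 632, 666, 668 and 852. The groups did not overlap, but bg277 stood above the other bigenic mice and nt278 above the other nontransgenic mice. The means were 397.5 ± 83.0 and 704.5 ± 99.7 (SD, n = 4 each), and the log2(fold change) was -0.84 with an SE of 0.15. The ratio was 0.561 (95% interval 0.446 to 0.704), and without bg277, the library with the fewest reads, it was 0.510 (0.436 to 0.597). Without nt278 it was 0.599 (0.475 to 0.755).

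Ptprn2 was the most abundant of the 5 genes. Its levels in bigenic mice, in the same order as above, were 5261, 4715, 4749 and 4945 normalized counts. The nontransgenic mice had 8818, 8060, 8182 and 7211. No bigenic mouse reached the lowest nontransgenic mouse. The means were 4918 ± 250 and 8068 ± 661 (SD, n = 4 each), and the log2(fold change) was -0.71 with an SE of 0.08. Its ratio of 0.611 had an interval from 0.540 to 0.690, which does not reach 0.5 and lies mostly above that of Esyt2.

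Ncapg2 was the least abundant and the least separated. The bigenic mice had 160, 139, 205 and 188 normalized counts, and the nontransgenic mice 255, 180, 200 and 253. The groups overlapped, since bg283 and bg286 lay above nt250 and bg283 also above nt255. The means were 173 ± 29.3 and 222 ± 37.9 (SD, n = 4 each). The log2(fold change) of -0.36 (SE 0.17) corresponded to a ratio of 0.780, and its interval from 0.602 to 1.01 holds 1 but not 0.5. Between 67.2 and 349 reads per mouse lie behind these values, and weighting the mice by their spread moved the log2(fold change) to -0.10. Only nt242 and nt278 reached 10 CPM of Ncapg2, so it passed the filter only through the group where it was higher. The exons of Ncapg2 share 15 bases with D430020J02Rik on the opposite strand.

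Rapgef5, on the distal flank, stood on the other side of 0. The bigenic mice had 2811, 2984, 2540 and 2783 normalized counts, and the nontransgenic mice 2551, 2360, 2299 and 2330. Apart from bg283, which lay just under nt242, every bigenic mouse was above every nontransgenic mouse. The means were 2780 ± 183 and 2385 ± 113 (SD, n = 4 each), with a log2(fold change) of 0.22 (SE 0.08) and a ratio of 1.16 (95% interval 1.04 to 1.31).

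**Figure D1:**
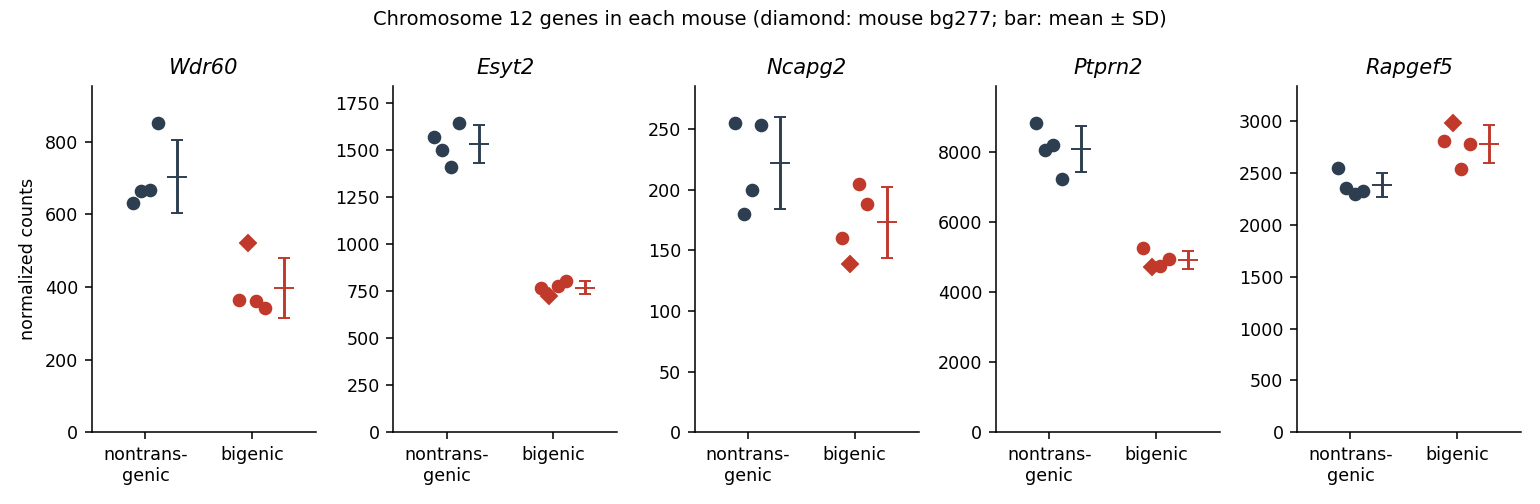
Normalized counts (y axis, from 0, a separate scale per gene) of the 5 chromosome 12 genes in each nontransgenic (dark) and bigenic (red) mouse, with the mean ± SD at the right of each group and bg277 as a diamond. For Wdr60, Esyt2 and Ptprn2 all bigenic mice lie below all nontransgenic mice, while Ncapg2 and Rapgef5 overlap.

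Of all genes tested, limma called 35.9% differentially expressed (adjusted p below 0.05), made up of 15.4% lower and 20.5% higher in bigenic mice. Groups that do not overlap occurred in 39% of genes, and in 16.7% with bigenic mice lower. The 3 of 5 chromosome 12 genes without overlap were chosen by this same contrast, so nothing is read from their number. With respect to the ratio, 307 genes (2.9%) lay between 0.4 and 0.6. The 95% interval held 0.5 for 481 genes (4.54%), and for 389 of these (3.67% of all genes) it also lay below 1. Of the 5 genes, Wdr60 and Esyt2 had such an interval.

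The ratios changed little when the fit held a sex term based on Xist. They were then 0.543 for Wdr60, 0.504 for Esyt2, 0.768 for Ncapg2, 0.625 for Ptprn2 and 1.18 for Rapgef5. Among the 3 bigenic and 2 nontransgenic mice with little Xist, the ratio was 0.532 (0.364 to 0.778) for Wdr60 and 0.506 (0.409 to 0.625) for Esyt2. It was 0.779 (0.524 to 1.16) for Ncapg2, 0.625 (0.521 to 0.751) for Ptprn2 and 1.19 (0.980 to 1.45) for Rapgef5, so the interval of Rapgef5 held 1 in those 5 mice.

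**Figure D2:**
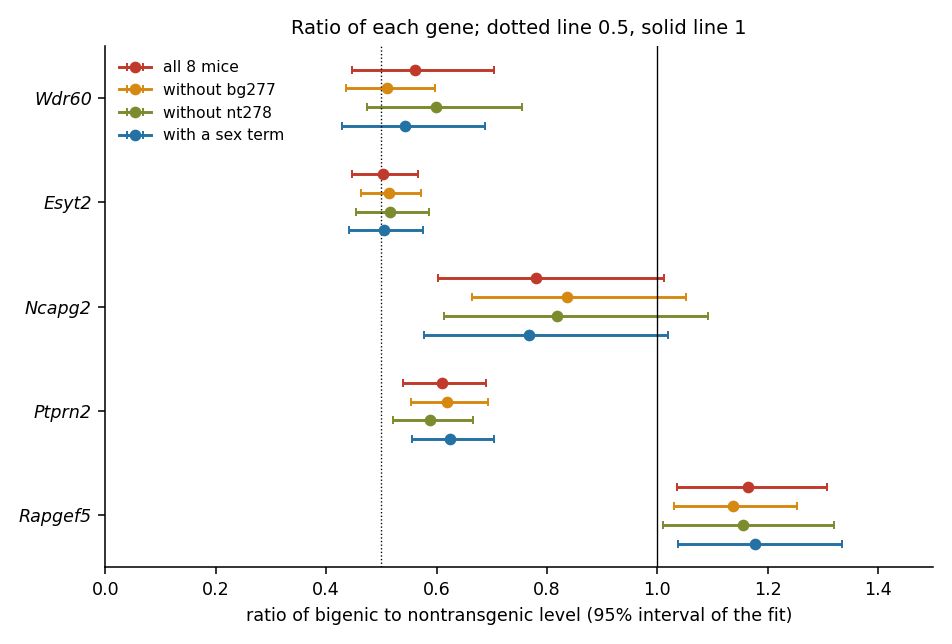
Ratio of the bigenic to the nontransgenic level (x axis, linear) with its 95% interval for each gene (y axis), in all 8 mice, without bg277, without nt278 and with a sex term. The intervals of Esyt2 and Wdr60 hold the dotted line at 0.5 in each setting, those of Ptprn2 lie between 0.5 and 1, those of Ncapg2 reach the solid line at 1, and those of Rapgef5 lie above it.

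Levels were compared between genes per kb of exon. In nontransgenic mice the order was Ptprn2 (1549 normalized counts per kb), Rapgef5 (598), Esyt2 (276 ± 18.2), Wdr60 (189 ± 26.8) and Ncapg2 (33.6). The ranges of neighbours in this order did not overlap. In bigenic mice the order was the same, with Ptprn2 at 944, Rapgef5 at 697, Esyt2 at 139 ± 6.16, Wdr60 at 107 ± 22.3 and Ncapg2 at 26.2, but bg277 brought Wdr60 into the range of Esyt2. After the group means were removed, the genes did not follow one another closely from mouse to mouse. Over the 8 mice, Pearson's r of these residuals was 0.77 for Esyt2 with Ncapg2 and -0.68 for Wdr60 with Ptprn2, and between -0.32 and 0.38 for the other 8 pairs. These values share libraries and depth and are given as a description.

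The genes tested on either side of the group were then examined. Zfp386, a zinc finger gene and the nearest on the proximal side, was at 522, 498, 645 and 563 normalized counts in bigenic mice. Nontransgenic mice had 534, 450, 479 and 360. The groups overlapped, and its log2(fold change) of 0.30 (SE 0.13) was not called (limma adjusted p = 0.104). On the distal side Rapgef5 was followed by Sp4, a transcription factor of neurons, 0.957 Mb from the end of Ptprn2. Sp4 measured 786, 581, 888 and 943 in the bigenic and 888, 927, 813 and 657 in the nontransgenic mice. It overlapped as well, and its log2(fold change) was -0.05 (SE 0.16, limma adjusted p = 0.826).

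Farther out, genes moved in both directions. Itgb8, an integrin subunit 1.88 Mb distal, had 753, 469, 643 and 704 normalized counts in bigenic and 884, 965, 907 and 749 in nontransgenic mice. It was called lower with a log2(fold change) of -0.46 (SE 0.15, limma adjusted p = 0.0330), although bg254 lay above nt278. The call was lost without bg283, nt242, nt250 or nt255, with limma adjusted p up to 0.0960, and with a sex term (limma adjusted p = 0.0583). Tmem196, 2.67 Mb distal, had a log2(fold change) of 0.36 and was not called (limma adjusted p = 0.197). Proximally, no gene between Zfp386 and a cluster more than 3 Mb away was tested. In that cluster Btbd6 was the gene farthest from 0. It measured 1279, 1973, 1382 and 1345 in bigenic and 781, 771, 863 and 736 in nontransgenic mice, without overlap, and rose by a log2(fold change) of 0.90 (SE 0.13, limma adjusted p = 0.000834). Pacs2, which sorts membrane proteins, rose by 0.29 (limma adjusted p = 0.00604). Mta1, a chromatin regulator, was called lower at -0.31 (limma adjusted p = 0.0189), but not without nt250 (limma adjusted p = 0.0502) or nt255 (limma adjusted p = 0.0661). Crip2 at -0.38 (limma adjusted p = 0.138) and Brf1, a subunit of an RNA polymerase III factor, at 0.23 (limma adjusted p = 0.174) were not called.

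Over all genes tested, 20.5% were called higher and 15.4% lower, with a median log2(fold change) of 0.03. Within 5 Mb of the 4 genes, 27 other genes were tested, of which 8 were called higher and 3 lower, with a median of 0.02. Whether these counts differ from the shares over all genes was not tested. The other genes called higher were Akt1 (0.54), a kinase of growth signalling, Trmt61a (0.57), a tRNA methyltransferase, AW555464 (0.49), Inf2 (0.48), a formin, Cdc42bpb (0.37), a kinase of the cytoskeleton, and Eif5 (0.37), a translation initiation factor. BC022687 was the other gene called lower (-0.39). Of these, Inf2 was no longer called without bg254, nt242, nt250, nt255 or nt278 (limma adjusted p up to 0.0875). Eif5 lost its call without bg254, nt250, nt255 or nt278 (up to 0.0692), and BC022687 without bg283, bg286, nt250 or nt255 (up to 0.124). With a sex term Inf2 and BC022687 were not called (limma adjusted p = 0.0604 and 0.0699). Trmt61a reached 10 CPM only in bigenic mice and BC022687 only in nontransgenic mice, so the filter favoured the direction of each. No gene among the 27 had a log2(fold change) below that of Itgb8, so none was as low as Wdr60, Esyt2 or Ptprn2, which were chosen for being low. Itgb8 (-0.46), BC022687 (-0.39) and Crip2 (-0.38) were each lower than Ncapg2 (-0.36), the remaining gene of the group. With a sex term 8 of the 27 were called, and with only the mice with little Xist 1 was called. Without nt250 or without nt255 the number called was 6. Exons of Cdc42bpb share 15.1% of their bases with a noncoding RNA on the opposite strand, and the counting was not stated to use strand. Over the rest of chromosome 12, 78 of 361 genes were called higher and 69 lower, with a median of 0.01. The shares over all genes are those given above.

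**Figure D3:**
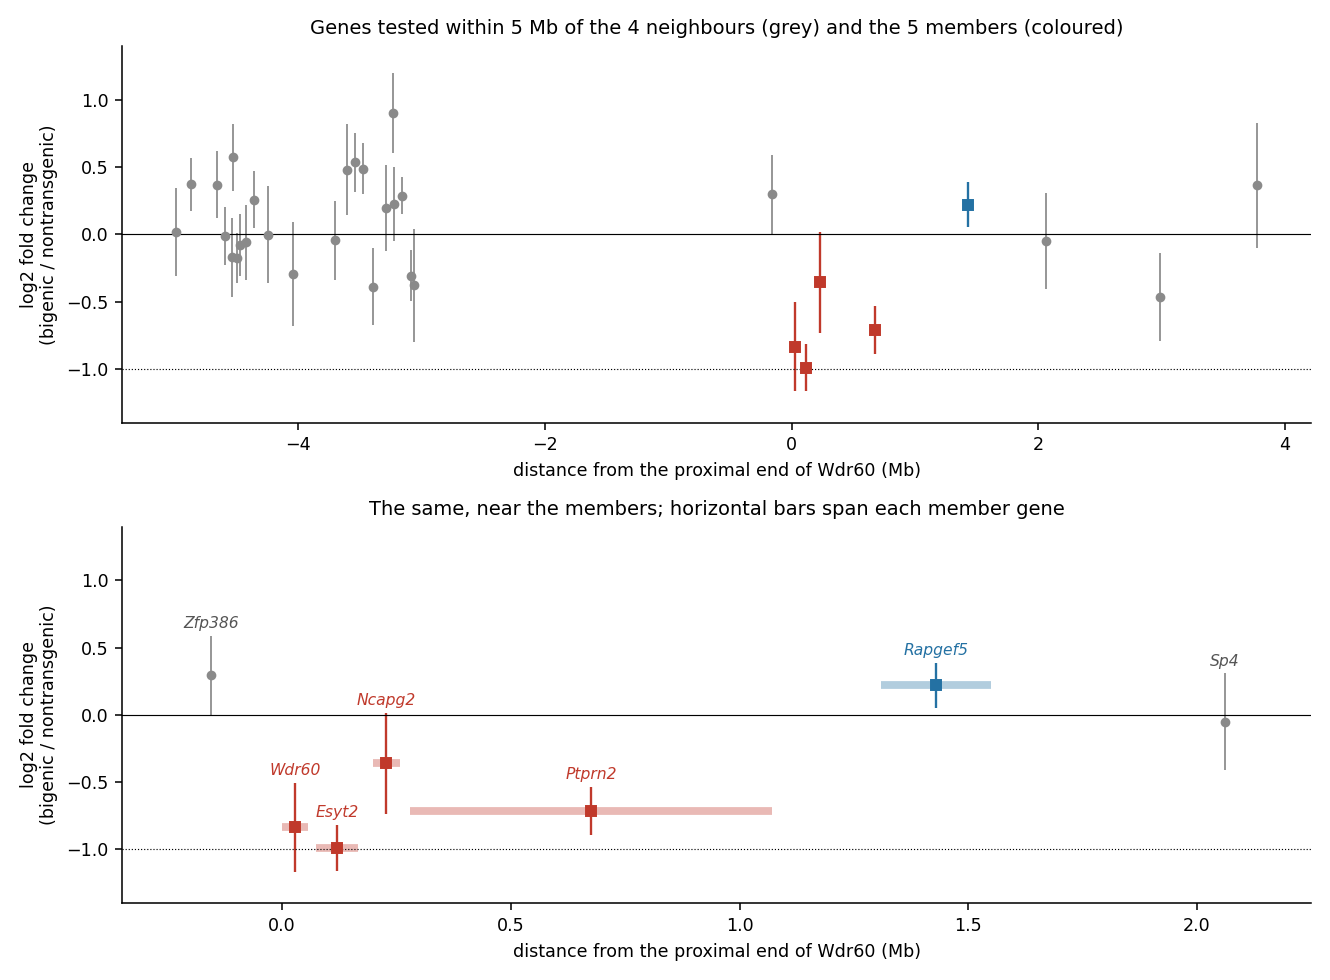
Log2 fold change of bigenic over nontransgenic mice with its 95% interval (y axis) against the distance of each gene's middle from the proximal end of Wdr60 in Mb (x axis), for genes tested within 5 Mb (top) and near the 5 genes (bottom, where horizontal bars span each gene). Wdr60, Esyt2, Ncapg2 and Ptprn2 (red) lie below 0, between Zfp386 at 0.30 and Rapgef5 (blue) at 0.22, and the dotted line marks -1.

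Neighbouring genes with a common direction also occurred elsewhere. Each set of 4 consecutive genes tested along a chromosome was ranked by its median log2(fold change), with 10097 such runs in all. The run of Wdr60, Esyt2, Ncapg2 and Ptprn2 had a median of -0.77 and took place 13 from the lowest. Its genes were chosen for being low in this same contrast, so its place and common sign follow from the choice and are given as a description. The lower and upper quartiles of the run medians were -0.12 and 0.18. In 11 runs, this one included, all 4 genes lay below -0.35, and 18 runs had a median below -0.7. The place was 4 without bg277 and 20 without bg283, with overlapping runs counted separately.

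Of runs that share no gene, the lowest held 2610507B11Rik, BC030499, Spag5 and Aldoc on chromosome 11, with a median of -1.14. Next came Reep3, Egr2, Ado and Zfp365 on chromosome 10 (-0.85) and Cwc22, Ube2e3, Itga4 and Neurod1 on chromosome 2 (-0.83). Ranking used the median alone, so the genes of a run need not share a direction. In the order named, the highest gene of each run was at -0.07, 0.05 and 0.30. None of these runs thus had all its genes below -0.35. In the other direction, Kdm5d, Eif2s3y, Uty and Ddx3y on the Y chromosome had a median of 2.01, and 3 bigenic and 2 nontransgenic mice had the male pattern. Plxdc1, Cacnb1, Stac2 and Fbxl20 on chromosome 11 had 1.02, and 2410131K14Rik, Med13l, Rbm19 and Plbd2 on chromosome 5 had 1.01. The lowest gene was at -0.04 in the run of Plxdc1 and at 0.11 in that of 2410131K14Rik.

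The mean centred profile of the 4 genes over the 8 mice was followed closely by genes on other chromosomes. Among the genes most like it were St3gal1 (Pearson's r 0.996, chromosome 15), Nell2 (0.993, chromosome 15), Cdk5r1 (0.991, chromosome 11) and Rasgrf2 (0.991, chromosome 13). None of these lies on chromosome 12, while 1 of the 20 genes most like the profile does, Hspa2 (0.987). Only 361 other genes tested lie on chromosome 12, so nothing about position is read from this. In all, 259 of 10583 genes had an r over 0.95, and every such gene carries the difference between the groups that chose the profile. Of the genes themselves, r was 0.994 for Esyt2, 0.944 for Ptprn2, 0.904 for Wdr60, 0.733 for Ncapg2 and -0.82 for Rapgef5. All but Rapgef5 are part of the profile, which raises their r, so these values are not set against those of other genes. Rasgrf2, an exchange factor for Ras proteins, shows how far such genes can lie from a ratio of 0.5. Bigenic mice had 2194, 2163, 2515 and 2538 normalized counts of it, against 6191, 5539, 5931 and 6344 in nontransgenic mice. Its log2(fold change) was -1.35 (SE 0.08). Cdk5r1, the activator of the neuronal kinase Cdk5, was at -0.82 (SE 0.07), close to the values of Wdr60 and Ptprn2.

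Sequence features of the transcribed genes differed between the 5. TG runs were counted on the sense strand, where they are read as UG in the RNA, with at least 6 repeats in a run of at least 12 bases. Ptprn2 has 61 such runs and Rapgef5 29, while Wdr60 has 2, Ncapg2 3 and Esyt2 4. Per 100 kb this is 3.57 in Wdr60, 4.35 in Esyt2, 5.16 in Ncapg2, 7.70 in Ptprn2 and 12.1 in Rapgef5. The median of all genes is 7.71, so the density was at the median in Ptprn2, under it in Wdr60, Esyt2 and Ncapg2, and over it in Rapgef5. The longest run of each gene lies in an intron. Those of Esyt2 and Ptprn2 are shown with 20 bases on each side and the run in capitals, because they come from the gene nearest 0.5 and from the longest gene. They lie on the plus strand of mm9 at chr12:117567075-117567154 and chr12:118007372-118007469.
Esyt2: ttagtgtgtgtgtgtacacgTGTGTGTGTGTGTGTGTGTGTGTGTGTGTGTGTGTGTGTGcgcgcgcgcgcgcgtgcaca
Ptprn2: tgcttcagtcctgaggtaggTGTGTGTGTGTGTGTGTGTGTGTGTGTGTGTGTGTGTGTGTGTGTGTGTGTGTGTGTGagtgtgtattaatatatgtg

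The run of Esyt2 is 40 bases long, and 60% of all genes have a longest run of that length or less. The run of Ptprn2 is 58 bases long, a length that 96.5% of genes do not exceed. A run is a match of letters and says nothing of binding in these mice. Gene length set Ptprn2 apart, since 99.4% of genes are no longer than its 792 kb. Among the 160 genes over 500 kb, 33.1% were called lower and 10% higher, with a median log2(fold change) of -0.16. Among the 1741 genes over 100 kb, a class that holds Ptprn2 and Rapgef5, 23.1% were called lower and 16.8% higher, with a median of -0.04. Wdr60, Esyt2 and Ncapg2, at 56.0, 91.9 and 58.1 kb, are shorter than this bound.

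Genes that work with the 5 in the same complexes or processes, but lie elsewhere, moved in both directions. Of 111 such genes, 96 were tested, and 20 were called higher and 15 lower, which is 36.5% against the 35.9% of all genes. With a sex term 27 were called, and with only the mice with little Xist 4. The number was 18 without nt242 or without nt250 and 21 without nt255. By list, the share called was 33.3% for Wdr60, 31.8% for Esyt2, 29.4% for Ncapg2, 50% for Ptprn2 and 35% for Rapgef5. Whether these shares differ from that of all genes was not tested.

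For dynein-2 and the transport particles of the cilium, the partners of Wdr60, 2 of 15 genes were called higher and 3 lower, with a median of -0.09. Kifap3, a subunit of the outward motor kinesin-2, had 5374, 4637, 5424 and 5226 normalized counts in bigenic and 10543, 9423, 9684 and 9154 in nontransgenic mice. It fell by 0.91 on the log2 scale (SE 0.08, limma adjusted p = 4.78e-05). Dync2li1, the light intermediate chain of dynein-2, was lower (-0.57, limma adjusted p = 0.00260), while Kif3b (0.32, limma adjusted p = 0.00607) and Ttc21b (0.46, limma adjusted p = 0.00280) were higher. Wdr34, the intermediate chain that pairs with Wdr60, measured 262, 333, 278 and 325 against 354, 318, 368 and 350 and was not called (-0.22, limma adjusted p = 0.138).

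For contacts of the endoplasmic reticulum with the plasma membrane, the setting of Esyt2, 5 of 22 genes were called higher and 2 lower, with a median of 0.09. Its paralog Esyt1 had 223, 290, 175 and 220 normalized counts in bigenic and 140, 172, 160 and 146 in nontransgenic mice. The groups did not overlap, and Esyt1 was called higher at 0.53 (SE 0.16, limma adjusted p = 0.0275). Only bigenic mice reached 10 CPM of Esyt1, so the filter favoured this direction. Esyt1 was not called without bg254, bg286, nt242, nt255 or nt278, with limma adjusted p up to 0.0778. The lipid transfer proteins Gramd1a (0.51, limma adjusted p = 0.000720) and Osbpl5 (0.65, limma adjusted p = 0.000800) were called higher. Vapb, an anchor in the endoplasmic reticulum, was lower (-0.36, limma adjusted p = 0.00498), as was C2cd2l (-0.41, limma adjusted p = 0.00525). Esyt3 had no row past the filter.

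For condensin and cohesin, 5 of 17 genes were called, each of them higher, and the median of the 17 was 0.05. Wapal, which releases cohesin, rose by 0.51 (limma adjusted p = 0.00126) and Rad21, a cohesin subunit, by 0.43 (limma adjusted p = 0.00215). Mcph1, which restrains condensin II, rose by 0.40 (limma adjusted p = 0.00431). Ncapd2, a subunit of condensin I, had 535, 709, 508 and 503 normalized counts in bigenic and 351, 443, 455 and 424 in nontransgenic mice (0.42, limma adjusted p = 0.0310). It was not called without bg254, nt242, nt250 or nt278 (limma adjusted p up to 0.0910), nor with a sex term (limma adjusted p = 0.0607). Ncapg, the condensin I counterpart of Ncapg2, had no row past the filter.

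For dense-core vesicles, 4 of 22 genes were called higher and 7 lower, with a median of -0.08. Ptprn, the paralog of Ptprn2, had 6171, 8893, 6682 and 7338 normalized counts in bigenic and 6173, 5712, 5566 and 5682 in nontransgenic mice. Only bg254 lay inside the nontransgenic range, and Ptprn was called higher at 0.32 (SE 0.11, limma adjusted p = 0.0443). The call was lost without bg286 or any 1 of the 4 nontransgenic mice (limma adjusted p up to 0.111) and with a sex term (limma adjusted p = 0.0823). Chga, a granin stored in these vesicles, was higher at 0.96 (limma adjusted p = 0.00471). Cadps2, which primes vesicles for release, was lower at -0.72 (limma adjusted p = 0.000556). The prohormone enzyme Cpe (-0.40, limma adjusted p = 0.00298) and the chaperone Scg5 (-0.55, limma adjusted p = 0.0160) were also lower, although Scg5 was not called without nt242 (limma adjusted p = 0.0517), nor Cpe after quantile normalization (limma adjusted p = 0.0763).

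For Rap GTPases and their regulators, 4 of 20 genes were called higher and 3 lower, with a median of -0.05. Rap1gap (0.37, limma adjusted p = 0.00541), Sipa1l2 (0.34, limma adjusted p = 0.0162) and Sipa1l1 (0.28, limma adjusted p = 0.0212), which switch Rap off, were higher. The GTPase Rap2b was lower (-0.46, limma adjusted p = 0.0187), and its exons share 34.4% of their bases with a gene on the opposite strand. Sipa1l1 and Rap2b were not called without nt242 or nt250 (limma adjusted p up to 0.0658 and 0.0599), and Sipa1l2 not without nt250 or nt255 (limma adjusted p up to 0.0533).

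**Figure D4:**
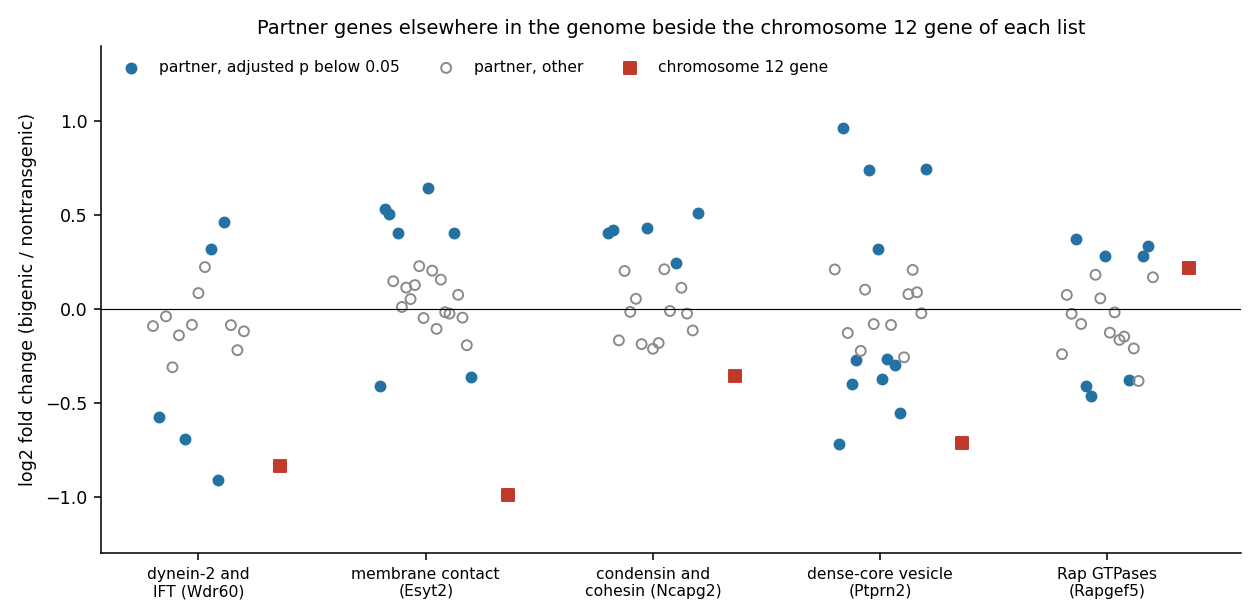
Log2 fold change of bigenic over nontransgenic mice (y axis) for partner genes elsewhere in the genome, in the 5 lists named by process (x axis), filled where the limma adjusted p was below 0.05, beside the chromosome 12 gene of each list (red square). Wdr60 at -0.84, Esyt2 at -0.99, Ncapg2 at -0.36 and Ptprn2 at -0.71, which were chosen for being low, lie low in their lists. Kifap3 (-0.91) lies below Wdr60, and Cadps2 (-0.72) below Ptprn2. The called partners lie on both sides of 0 except among condensin and cohesin genes, where all 5 are above it.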

How the data were processed

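Poly(A)+ RNA from the cortex of 8 mice, 4 in each group, was measured. The authors mapped reads to mm9 with Bowtie 0.12.7, kept those mapping uniquely and counted them on exons with bedtools. The deposited signal is the authors' normalized count per transcript, as whole numbers that follow from scaling the reads of each mouse. A further table holds the authors' DESeq2 fold changes and p-values, of which only the transcript names were used. What 1 read is worth was estimated from steps in the values, and 8 of 8 simulated steps were recovered within 1 percent. Genes with at least 10 CPM of the column total in at least 1 mouse were tested with limma 3.58.1 (R 4.3.3, trend) on log2(signal + 1), with Benjamini-Hochberg adjustment over 10588 genes and a threshold of 0.05. Fold changes on this scale understate those of low genes. On simulated data, 194 of 200 genes changed by 1 on the log2 scale were recovered, with 19 false calls. The simulation drew independent normal noise with the nontransgenic spread in both groups. It did not copy the unequal depth of the mice or the larger share of genes called here, so it does not give the error rate of these data. The p-values measure the spread between these mice only. Other pseudocounts, filters, thresholds, windows, weighting of the mice and leaving out each mouse were tried as alternatives. Positions came from the mm9 annotation.

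The members and lists were chosen with earlier results of these data known. Named genes were the 5 members, the 5 nearest genes tested on each side and others called within 5 Mb, up to 4 called partners per list and paralogs, and the 5 genes most like the mean profile. Some genes that this rule or the marker lists select are not reported here. The sex term used an Xist level above 1000 and was chosen after seeing the data.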

Additional observations from a re-analysis of the deposited data

Results flagged for a closer look

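Among 98 groups of 4 mice, 8 had a mouse far from the other 3, and about 1 in 20 is flagged by chance. In 6 of the 8 this mouse was bg277, which has the fewest reads. For Wdr60, bg277 had 521 normalized counts, above the next bigenic mouse at 365. Wdr60 in nt278 stood at 852, above the next nontransgenic mouse at 668. Among the neighbours, bg277 was the highest bigenic mouse for Crip2 (1013), Tmem196 (500) and Btbd6 (1973). Among the partners, bg277 was the highest bigenic mouse for Ncapd2 (709) and the lowest for Rap2b (1049). Dync2li1 was lowest among nontransgenic mice in nt242, at 291. The part of its depth in these values was not tested.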

How the results depend on the processing

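The log2(fold change) of each of the 5 chromosome 12 genes kept its sign under every alternative in which the gene was fitted. With 10 CPM required in every mouse, Ncapg2 did not pass the filter and had no value. Of the fitted values only that of Ncapg2 under weighting of the mice (-0.10) moved by more than the spread between mice. Leaving out each mouse in turn gave -0.97 to -0.74 for Wdr60, -1.03 to -0.95 for Esyt2, -0.45 to -0.26 for Ncapg2, -0.76 to -0.67 for Ptprn2 and 0.18 to 0.26 for Rapgef5. The number of neighbours called, 11 within 5 Mb, was 6 at an adjusted p below 0.01, 20 with weighted mice, 1 within 2 Mb and 20 within 10 Mb. Partner genes called, 35 in all, became 15 at the stricter threshold and 59 with weighted mice. In the mice with little Xist, an alternative chosen after seeing the data with fewer samples, 1 neighbour and 4 partners were called. Leaving out each mouse gave 6 to 14 neighbours, 18 to 46 partners and places 4 to 20 for the run of 4 genes. Over 17 settings, 744 comparisons of 44 single genes gave the same call and direction in 658, lost the call in 79, gained it in 7 and reversed in 0. Otherwise the causes were not tested. No paired analysis was possible because the columns of the table carry no replicate numbers. At 3 reads, the floor was 1.94 to 6.20 normalized counts, far below all 5 genes.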
